A study of Mus musculus with 2 samples.

Results

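The genes described here encode the main surface receptors of microglia, the resident macrophages of the brain, with the brain ligands and the adaptor that act on those receptors. They are the receptors Csf1r, Cx3cr1, P2ry12, Tgfbr1 and Trem2, the ligands Csf1, Il34, Cx3cl1 and Tgfb1, and the adaptor Tyrobp. The 10 genes were taken by symbol, and all 10 were found among the 55536 annotated genes of the tables. The tissue was hippocampus at 10 days of age, from B6CASTF1/J mice (F1 offspring of C57BL/6J and CAST/EiJ parents), and total RNA was sequenced. The series holds 1 group of 2 biological replicates, so no treatment, genotype or age could be compared. Both libraries are labelled male, both were started from 300 ng of RNA with spike-in RNA added, and the label of each names 3 mice, without saying whether their RNA was pooled. The question is therefore how receptor and ligand levels stand to each other in whole tissue, and how far the 2 libraries differ.

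Microglia depend on signalling through the kinase receptor CSF1R, which has CSF1 and IL-34 as alternative ligands, and in forebrain IL-34 comes mainly from neurons. Neurons also make fractalkine, the product of Cx3cl1, whose receptor CX3CR1 is carried in brain mainly by microglia. P2RY12 is a receptor for ADP that steers microglial processes, TGF-beta signalling through TGFBR1 maintains microglial identity, and TREM2 signals through the adaptor TYROBP (DAP12). In whole tissue, fewer cells of a type and less RNA per cell cannot be told apart.

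The sex-linked genes went against the label of 1 library. Xist, which coats the inactive X chromosome, was at 25 counts in replicate 1. In the library labelled male, replicate 2, it was at 30841. The Y-linked genes Ddx3y and Eif2s3y had 2164 and 1302 counts in replicate 1 and 0 and 0 in replicate 2. Each difference between the libraries below is therefore also a difference between these 2 patterns. Depth was 32035705 and 29747193 expected counts. Of 18 microglial marker genes, 18 were at 1 TPM or more in both libraries, where TPM is an abundance relative to all transcripts of the library, corrected for transcript length. Among them the complement gene C1qb stood at 14.46 and 15.41 TPM, and Slc2a5, a fructose transporter gene and the lowest of the 18 by mean TPM, at 1.77 and 1.76. The 4 neuron, 4 astrocyte, 4 oligodendrocyte-lineage and 3 endothelial marker genes were likewise all at 1 TPM or more in both libraries. Of 8 marker genes of border macrophages and monocytes, 3 reached that level in both libraries. Of 7 genes of other blood leukocytes none did, and Cd3e and Ly6g were listed at 0.

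Several members have transcripts that differ by where exons are joined. The isoform results below are counts and TPM estimated for whole transcripts, and no reads across joins were counted. The following sequences are the coding strand of GENCODE M21 transcripts around 5 exon joins, 5′ to 3′. The 30 bases of the earlier exon are in lower case and the 30 of the later exon in capitals. In Csf1, exon 5 ends at position 107750311 of chromosome 3 (mm10, minus strand) and exon 6 starts at 107749169 in Csf1-201 and at 107748284 in Csf1-202. In Trem2, exon 3 ends at position 48351191 of chromosome 17 (plus strand) and exon 4 starts at 48351746 in Trem2-201 and at 48351691 in Trem2-202. In Il34, exon 6 ends at position 110742644 of chromosome 8 (minus strand) and exon 7 starts at 110742448 in Il34-201. The non-coding Il34-205 has this last join as well, so the join does not separate it from Il34-201.
Csf1-201: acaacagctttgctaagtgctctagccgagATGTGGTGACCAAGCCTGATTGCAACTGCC
Csf1-202: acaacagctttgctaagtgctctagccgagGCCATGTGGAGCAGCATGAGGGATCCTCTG
Trem2-201: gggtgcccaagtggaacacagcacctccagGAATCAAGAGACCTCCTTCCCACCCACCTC
Trem2-202: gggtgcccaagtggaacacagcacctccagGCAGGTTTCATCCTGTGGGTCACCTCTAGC
Il34-201: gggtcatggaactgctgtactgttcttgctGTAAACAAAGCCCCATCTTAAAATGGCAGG

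All 10 genes were at 1 TPM or more in both libraries, and their mean levels ran from 169 TPM for Cx3cl1 to 2.82 TPM for Trem2. In falling order of mean TPM they were Cx3cl1, Csf1r, P2ry12, Il34, Cx3cr1, Tgfbr1, Tyrobp, Csf1, Tgfb1 and Trem2. Among neighbours in that order only Csf1r and P2ry12 overlapped in their library values, with means 1.05-fold apart. The order was nearly the same in a second deposited table, quantified from the reads directly (FASTQ-based) rather than from their alignments. There both Il34 values, 37.2 and 38.8 TPM, stood above both P2ry12 values, 26.2 and 34.9, the reverse of the alignment-based order. The FASTQ-based values of Cx3cr1 and Tgfbr1, of Tgfbr1 and Tyrobp, and of Csf1 and Tgfb1 overlapped between libraries, so these neighbours could not be ordered across both tables. With TPM rescaled to protein-coding genes alone every value was about doubled, since other RNA is left out of the total: Cx3cl1 then had a mean of 344, Csf1r of 55.8 and Trem2 of 5.73.

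**Figure D1:**
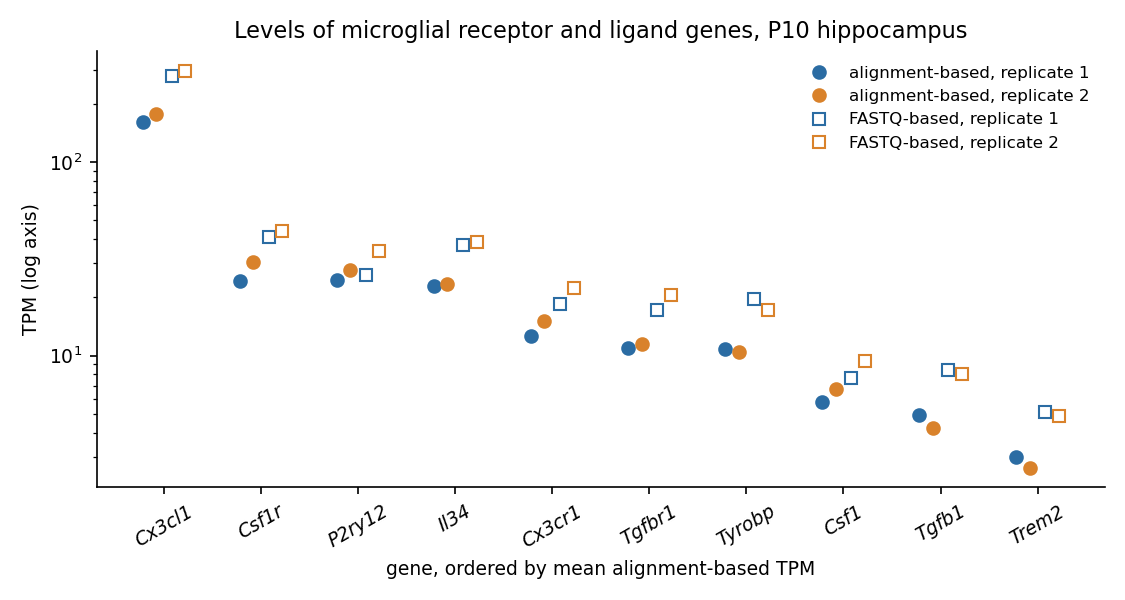
TPM of the 10 genes on a log axis, with filled circles for the alignment-based table and open squares for the FASTQ-based table, blue for replicate 1 and orange for replicate 2. Cx3cl1 stood above the other 9 genes by both routes, and Trem2 was the lowest by both.

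Csf1r, the receptor tyrosine kinase on which microglial survival depends, had the highest mean of the 5 receptor genes, although in replicate 1 P2ry12, at 24.56 TPM, was just above it. Its alignment-based level was 24.42 TPM in replicate 1 and 30.54 in replicate 2, a mean of 27.5 ± 4.33 TPM (SD, n = 2), above 81.0% of the 22028 protein-coding genes. These levels came from 1870 and 1902 expected counts. Csf1r lies on chromosome 18 (61100598 to 61132149, plus strand, mm10), and 873 of its 5774 exonic bases overlap exons of Hmgxb3 on the opposite strand. Hmgxb3 had 1667 and 1562 counts. No source used here says whether the counting used strand, so the reads of this stretch may belong to either gene.

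Il34 encodes a cytokine that shares the receptor CSF1R with CSF1. It lies on chromosome 8 (110741829 to 110805924, minus strand) and stood at 22.81 and 23.56 TPM, or 23.2 ± 0.530. Csf1, the colony-stimulating factor gene, lies on chromosome 3 (107741048 to 107760469, minus strand). It stood at 5.77 and 6.72 TPM, or 6.24 ± 0.672. Both library values of Il34 were above both values of Csf1. The ratio of Il34 to Csf1 was 1.98 and 1.81 on the log2 scale of TPM, a mean of 1.90 ± 0.12, or 3.72-fold. Il34 thus held 79.8% and 77.8% of the summed TPM of the 2 ligands, which came to 28.6 and 30.3. On the FASTQ-based scale the share was 82.8% and 80.5%. By TPM, a large part of the Il34 level was assigned to a transcript without coding sequence, described further on. Nearly all its bases also lie in a coding transcript, so this split is an estimate. The coding-only values that follow depend on it. Over transcripts annotated as coding, a restriction chosen after seeing the data, Il34 stood at 13.5 and 13.6 TPM and Csf1 at 5.39 and 6.46. The fold was then 2.30, a mean log2 ratio of 1.20, and the Il34 share 71.5% and 67.9%. By the FASTQ-based route the mean log2 ratio over coding transcripts was 1.62 and the share 77.0% and 74.0%.

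The receptor, at 24.42 and 30.54 TPM, was below the summed ligands in replicate 1 and slightly above them in replicate 2. By the FASTQ-based route it was below them in both, at 41.0 and 44.0 TPM against 44.9 and 48.2, so the order of receptor and summed ligands was not settled. Csf1r was 4.39-fold above Csf1, at log2 ratios of 2.08 and 2.18. Against Il34 it was 1.18-fold higher, at log2 ratios of 0.10 and 0.37, a mean of 0.24 ± 0.20. That mean is close to its own SD between the libraries, and on the FASTQ-based scale the mean was 0.16. Over coding transcripts alone, which depends on the estimated split of Il34, Csf1r was 1.97-fold above Il34, at log2 ratios of 0.83 and 1.13. Their mean was 0.98, against 0.75 by the FASTQ-based route. From the counts of each gene over all its transcripts, the ratio of Csf1r to Il34 changed between libraries by 0.08 on the log2 scale. Its exact 95% counting interval was -0.11 to 0.28. In TPM over all transcripts the change was larger, 0.28.

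Of the 6 pairs of members, fractalkine and its receptor had the widest gap. Cx3cl1, which encodes a membrane-bound chemokine, lies on chromosome 8 (94772009 to 94782427, plus strand). It stood at 161.85 and 176.48 TPM, or 169 ± 10.3, above 98.0% of protein-coding genes. Cx3cr1, its receptor gene on chromosome 9 (119901616 to 120069879, minus strand), stood at 12.67 and 15.17 TPM, or 13.9 ± 1.77. The ligand was thus 12.2-fold higher than the receptor, at log2 ratios of receptor to ligand of -3.68 and -3.54. The 2 genes rest on 10804 and 10936 counts for the ligand and on 1007 and 1121 for the receptor. The ratio moved towards the receptor in replicate 2 by 0.14 on the log2 scale of counts, with an exact 95% interval of 0.01 to 0.27. It was the 1 pair of 6 whose interval did not include 0. These intervals cover counting error only and were not adjusted for the 6 pairs.

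For TGF-beta the receptor gene Tgfbr1 was above the ligand gene Tgfb1, but not above every TGF-beta ligand gene. Tgfb2, at 16.76 and 17.72 TPM, was above both values of Tgfbr1, and Tgfb3, at 4.97 and 4.90, was below both. Nor does the level of Tgfbr1 stand for every TGF-beta receptor gene. Tgfbr2, at 5.55 and 6.51 TPM, was below both values of Tgfbr1 and above both values of Tgfb1. Tgfbr1, the type I receptor kinase gene on chromosome 4 (47353222 to 47414931, plus strand), stood at 10.91 and 11.43 TPM, or 11.2 ± 0.368. Tgfb1, the ligand gene on chromosome 7 (25687002 to 25705077, plus strand), stood at 4.93 and 4.24 TPM, or 4.58 ± 0.488. The log2 ratios of Tgfbr1 to Tgfb1 were 1.15 and 1.43, a mean of 1.29 ± 0.20, or 2.44-fold. The change of 0.28 between libraries had an interval of -0.04 to 0.60, set mainly by the 217 and 174 counts of Tgfb1.

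P2ry12, the ADP receptor gene on chromosome 3 (59216272 to 59262871, minus strand), stood at 24.56 and 27.63 TPM, or 26.1 ± 2.17. It came next to Csf1r among the receptors. It overlaps Med12l, a Mediator subunit gene on the opposite strand with 2386 and 2177 counts, but the exons of the 2 genes share only 9 of the 2546 exonic bases of P2ry12. The release of its ligand and the removal of ADP involve the purinergic genes described further on.

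Trem2, a lipid-sensing receptor gene on chromosome 17 (48346401 to 48354147, plus strand), was the lowest of the 10, at 3.00 and 2.64 TPM, or 2.82 ± 0.255. Its adaptor gene Tyrobp, on chromosome 7 (30413760 to 30417585, plus strand), stood at 10.78 and 10.46 TPM, or 10.6 ± 0.226. The adaptor was 3.77-fold above the receptor, at log2 ratios of Trem2 to Tyrobp of -1.85 and -1.99. Both rest on few reads, 95 and 73 counts for Trem2 and 110 and 98 for Tyrobp, which is a gene of short transcripts. Hcst, which encodes the related adaptor DAP10, lies 126 bases from Tyrobp and had 3 and 2 counts.

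**Figure D2:**
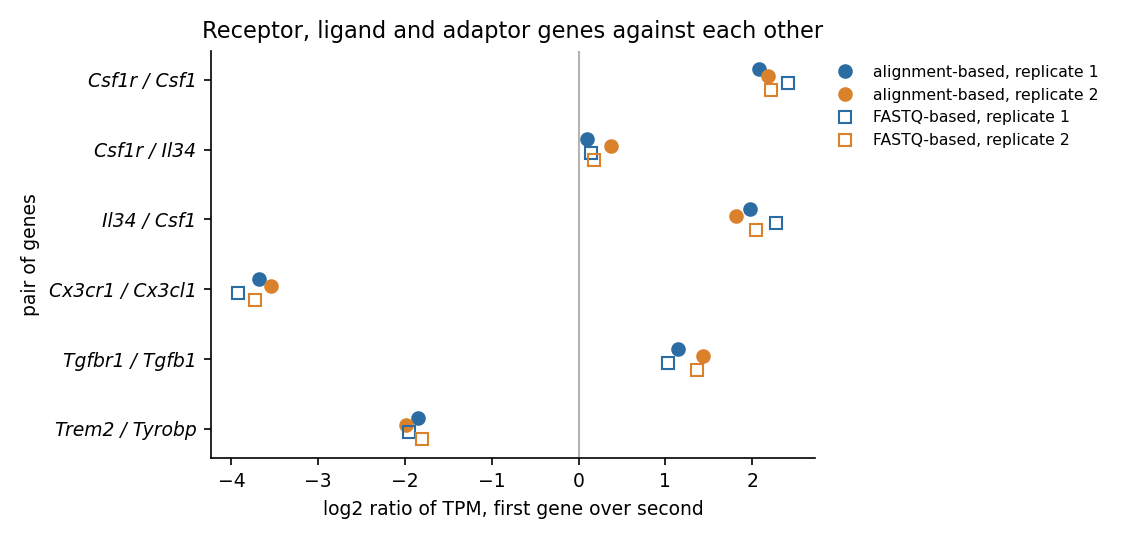
Log2 ratio of TPM between the first and second gene of 6 pairs, with filled circles for the alignment-based table and open squares for the FASTQ-based table, blue for replicate 1 and orange for replicate 2. Each pair kept its sign in the 2 libraries and by both routes, with Csf1r over Il34 nearest to 0 and Cx3cr1 over Cx3cl1 farthest from it.

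The 2 routes gave these genes different absolute levels. Over 17133 genes the FASTQ-based TPM was above the alignment-based one by a median of 0.65 on the log2 scale in replicate 1 and 0.64 in replicate 2. Csf1r, Il34, Cx3cl1, Tgfb1, Tgfbr1, Trem2 and Tyrobp differed by 0.53 to 0.92. P2ry12 differed least, by 0.09 and 0.34, with FASTQ-based values of 26.2 and 34.9 TPM. Csf1 differed by 0.42 and 0.49 and Cx3cr1 by 0.54 and 0.56. Levels are thus comparable only within a route.

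At the level of annotated isoforms the 10 genes have 49 transcripts, and in 8 genes the same transcript led by TPM in both libraries and by both routes. Cx3cl1-201, which encodes the full-length fractalkine precursor in 3 exons, held 95.2% and 95.1% of the gene's TPM. Tgfb1-201 held 92.5% and 93.9%, and Tgfbr1-201 held 82.0% and 82.4%. The FASTQ-based shares were lower, 84.2% and 86.6% for Cx3cl1-201, 86.4% and 69.6% for Tgfb1-201 and 71.7% and 64.1% for Tgfbr1-201.

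In Csf1 the leading transcript was Csf1-201, with 381.4 and 316.5 counts and 74.7% and 57.3% of the gene's TPM. Its exon 6, the one printed in capitals above, is 1016 bases long, against 131 bases in Csf1-202. The missing 885 bases (chromosome 3, 107748285 to 107749169) are 295 whole codons, so the reading frame is kept. Exon 6 encodes the stretch that distinguishes the secreted from the membrane-bound form of CSF1. Csf1-202 had 28.8 and 55.3 counts by the alignment-based route and 11.8 and 0.1 by the FASTQ-based route. The short form was thus a small share of Csf1 by both routes, and its direction between the libraries differed between them.

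In Il34 the coding Il34-201 held 57.1% and 56.0% of the TPM, and the non-coding Il34-205 held 36.6% and 42.1%. By counts the share of Il34-205 was lower, 17.9% and 20.6%, because it has only 675 bases. Of these, 664 (98.4%) also lie in Il34-201, including the join printed above, so reads seldom tell the 2 apart. On counts alone, Il34-201 had 455.2 and 428.2 and Il34-205 had 104.2 and 115.2. The Il34 level of 23.2 TPM therefore includes a part assigned to a transcript that has no coding sequence annotated.

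P2ry12 was the gene whose leading transcript changed between routes in both libraries. P2ry12-202 held 54.3% and 64.3% of the alignment-based TPM and was listed at 0.00 TPM in both libraries by the FASTQ-based route. P2ry12-201 held 83.2% and 80.2% of the FASTQ-based TPM and 3.83% and 4.12% of the alignment-based one. Both encode the same receptor from a coding sequence of 1041 bases in 1 exon. Their starts lie 42572 bases apart, at 59262831 for P2ry12-201 and 59220259 for P2ry12-202, so these tables do not settle which start was used.

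In Cx3cr1 the routes differed in the split between transcripts with 1 shared coding length of 1062 bases. Cx3cr1-201 held 98.3% and 98.0% of the alignment-based TPM, against 52.2% and 45.9% of the FASTQ-based one. Cx3cr1-203 took 36.8% and 36.0% of the FASTQ-based TPM. Tyrobp also lost a common leader, since Tyrobp-201 held 81.0% and 100% by alignments and 80.2% and 25.4% by the FASTQ-based route. Tyrobp-202 had 49.3 of the FASTQ-based counts in replicate 2.

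In Trem2 the coding Trem2-201 held 55.0% and 89.8% of the TPM, from 35.4 and 47.2 counts. Trem2-203, annotated as a retained intron of 4784 bases, had 42.4 and 25.8 counts, which is 44.6% and 35.3% of the gene's counts but 14.0% and 10.2% of its TPM. By the FASTQ-based route it held 69.2% and 63.7% of the counts. A large part of the Trem2 reads was thus assigned to a transcript without coding sequence by both routes. Trem2-202, whose exon 4 starts 55 bases earlier (48351691 to 48351745) in a frame shifted by those bases, had 15.6 and 0.0 counts, and 7.6 and 0.0 by the FASTQ-based route. These are counts estimated for the whole transcript, not reads across the printed join, and at this depth they are uncertain.

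**Figure D3:**
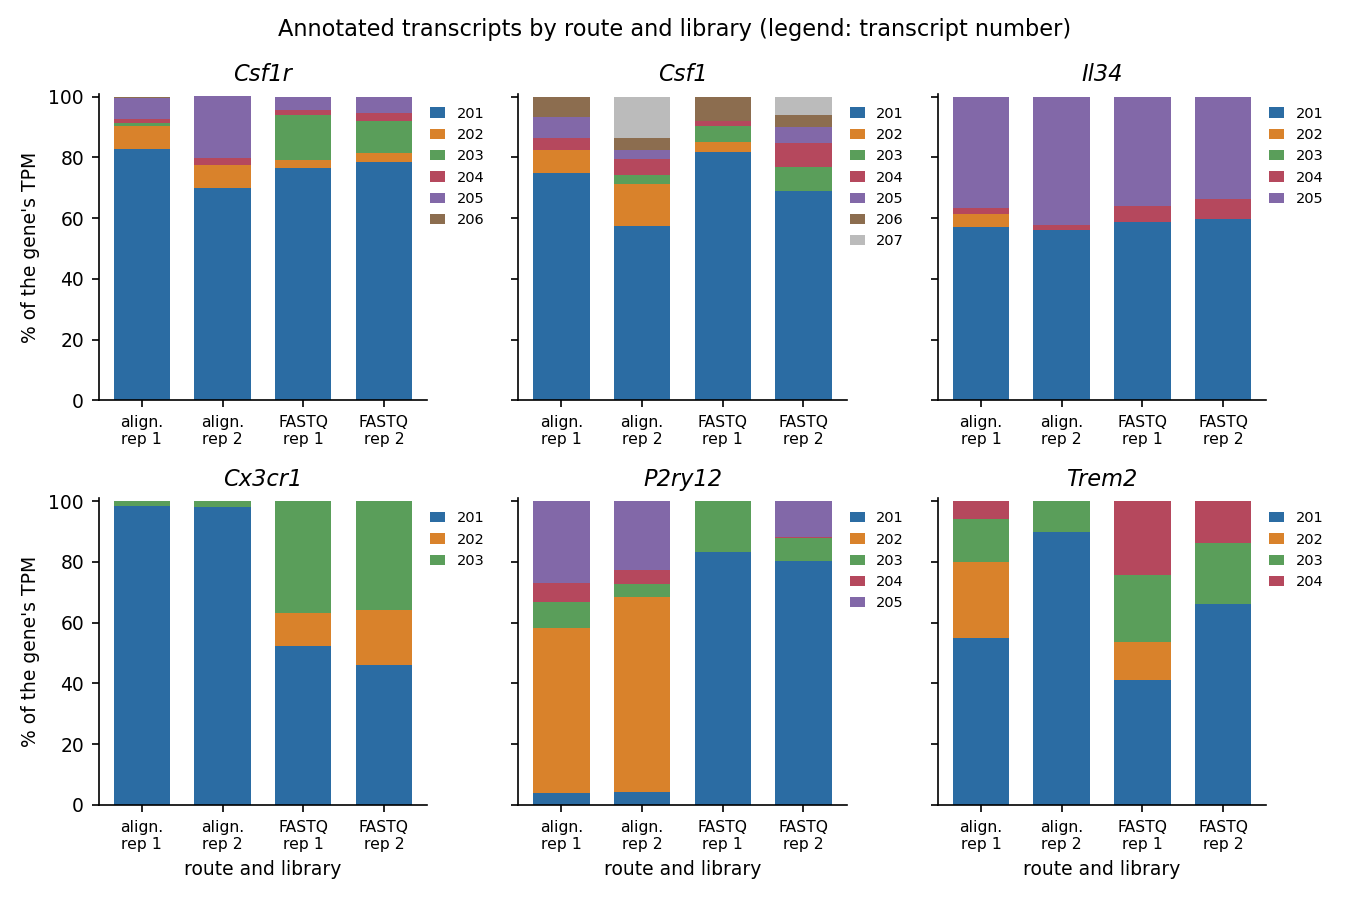
Share of the gene's TPM taken by each annotated transcript in Csf1r, Csf1, Il34, Cx3cr1, P2ry12 and Trem2, in stacked bars for both routes and both libraries. The bars of P2ry12 and Cx3cr1 differ between routes, and those of Il34 are nearly the same in all 4 columns.

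Between the 2 libraries, both labelled male, Csf1r, Cx3cr1, P2ry12 and Cx3cl1 were higher in replicate 2, and no member was lower there past the test. The test was a two-sided exact binomial test of each gene's counts with Benjamini-Hochberg adjustment over the 12879 genes whose mean count reached 100, called at an adjusted p under 0.05. It covers counting error only and compares these libraries, not conditions. It called 4 of the 9 members tested, against 11.8% of all genes tested. All 4 were higher in replicate 2, a direction called in 6.34% of all genes. None of the 9 reached a 2-fold difference, which 0.303% of all genes did with an adjusted p under 0.05. With the spread between the libraries estimated over all genes (edgeR's exact test on 17874 genes, 104 called), 0 of 10 members were called and 1 had an unadjusted p under 0.05. That spread was estimated from the same 2 libraries, so the differences tested were also counted as spread. The 0 therefore cannot decide whether ratios this small exceed the spread between replicates.

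Cx3cr1 had the largest ratio of the members called, with 1007 and 1121 counts. Its log2 ratio of replicate 2 to replicate 1 was 0.27, with an exact 95% interval of 0.14 to 0.39 (adjusted exact binomial p = 4.26e-04), and 7.24% of tested genes had a ratio at least as far from 0. P2ry12, with 870 and 939 counts, followed at 0.22 with an interval of 0.09 to 0.36 (adjusted exact binomial p = 0.0130). Both are receptors of homeostatic microglia. Cx3cl1, the most deeply counted member, differed by 0.13 with an interval of 0.09 to 0.17 (adjusted exact binomial p = 1.47e-09), and 26.1% of tested genes lay as far from 0. It has the most counts of the 10 genes, and its ratio was below those of Cx3cr1 and P2ry12.

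Csf1r differed by 0.14 in counts, with an interval of 0.04 to 0.23 (adjusted exact binomial p = 0.0336). Without the filter on low counts its adjusted exact binomial p was 0.0634. Its TPM ratio was larger, 0.32 on the log2 scale, while the FASTQ-based TPM ratio was 0.10. Csf1r-205, a transcript of 416 bases annotated as coding, went from 11.4 to 39.8 counts and from 1.67 to 6.23 TPM. The transcripts over 1000 bases summed to 22.4 and 24.3 TPM, a log2 ratio of 0.12. Most of the TPM difference of Csf1r thus lay in the counts placed on 1 short transcript.

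Of the other 6 members, 5 were tested and none was called. Il34 had 581 and 558 counts, a log2 ratio of 0.06 with an interval of -0.12 to 0.23. Csf1 was at 0.03 (interval -0.17 to 0.23), from 437 and 412 counts. Tgfbr1 was at 0.08 (interval -0.04 to 0.19), from 1171 and 1141 counts. The ligand Tgfb1 was at -0.20 with an interval of -0.50 to 0.09, and Tyrobp at -0.05 with an interval of -0.46 to 0.35. Trem2 had a mean count of 84.0, below the minimum, and entered the test with a minimum of 10. There it was at -0.26 with an interval of -0.73 to 0.19 (adjusted exact binomial p = 0.609). On FASTQ-based counts, 123.0 and 109.0, the ratio was -0.06 (adjusted exact binomial p = 0.932). A ratio of the size that passed in Cx3cr1 was thus not detectable at the depth of Trem2.

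**Figure D4:**
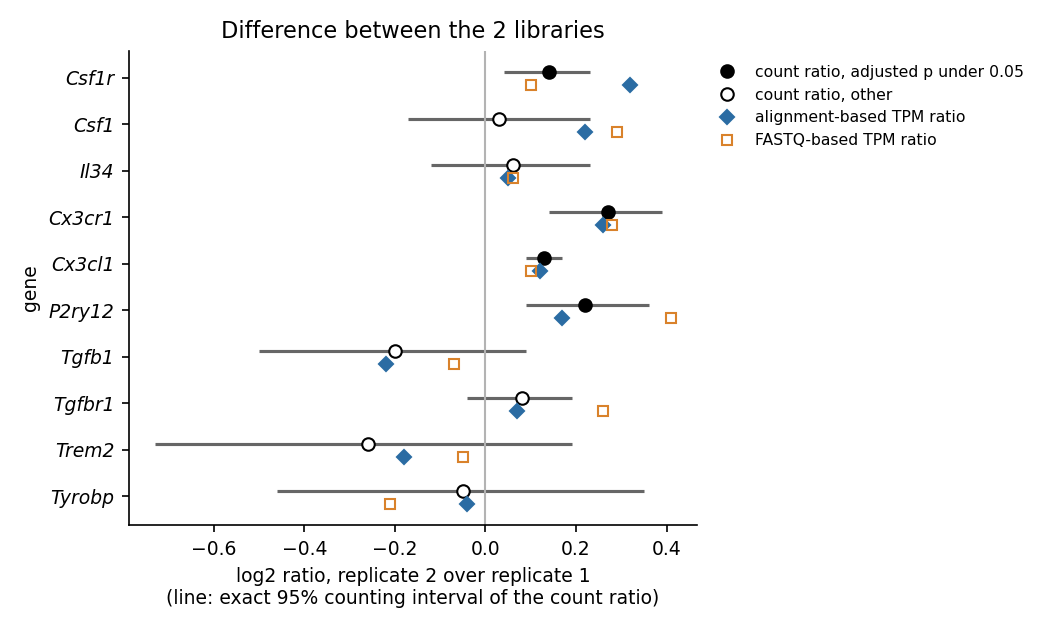
Log2 ratio of replicate 2 over replicate 1 for each gene, with circles for counts (filled where the adjusted p is under 0.05, lines for the exact 95% counting interval), diamonds for alignment-based TPM and squares for FASTQ-based TPM. The 4 filled circles lie right of 0, and the intervals of Trem2 and Tyrobp are the widest, since these genes have the fewest counts.

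Other microglial genes were compared in the same way. Of the 14 microglial markers tested, 3 were higher in replicate 2 and 0 lower, where 6.34% of all genes tested were called higher. Their median log2 ratio was 0.14, against 0.00 over all tested genes. The 3 were Gpr34, a lysophospholipid receptor gene (190 and 275 counts, 0.65), Fcrls (451 and 549 counts, 0.40) and Sall1, a transcription factor gene of microglial identity (813 and 867 counts, 0.21). The other 11 did not pass the test. Among them the complement genes C1qa, C1qb and C1qc were at 0.17, 0.10 and -0.03. The summed TPM of all 18 markers was 156 and 171.

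Other cell types differed between the same libraries. The choroid plexus genes summed to 10.6 and 349 TPM, the oligodendrocyte genes to 179 and 275, and the red blood cell genes to 958 and 566. Ttr, which encodes transthyretin, had 189 and 7445 counts, and at 8.02 and 340.07 TPM it made up most of both choroid plexus sums. Over all genes tested, the same test called 11.8% in either direction and 6.34% higher in replicate 2. Of the choroid plexus genes, 1 of 2 tested was higher there. So were 2 of 3 oligodendrocyte-lineage genes, with 1 lower, 2 of 4 astrocyte genes, with 1 lower, and 1 of 3 endothelial genes. All 5 red blood cell genes were lower there. Of the border macrophage and monocyte genes, 3 were tested and Cd163, a scavenger receptor gene, was lower in replicate 2, with 153 and 72 counts and a log2 ratio of -0.97, while Mrc1 was at 0.05. The summed level of that list was 11.4 and 8.73 TPM. Blood leukocyte genes summed to 0.290 and 0.820 TPM. The neuron markers, for the cells that make Cx3cl1, summed to 1251 and 1317 TPM, and 2 of 4 were higher in replicate 2 (Snap25 at 0.09 and Slc17a7 at 0.12). The part of any of these in the differences of the 10 genes was not tested.

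**Figure D5:**
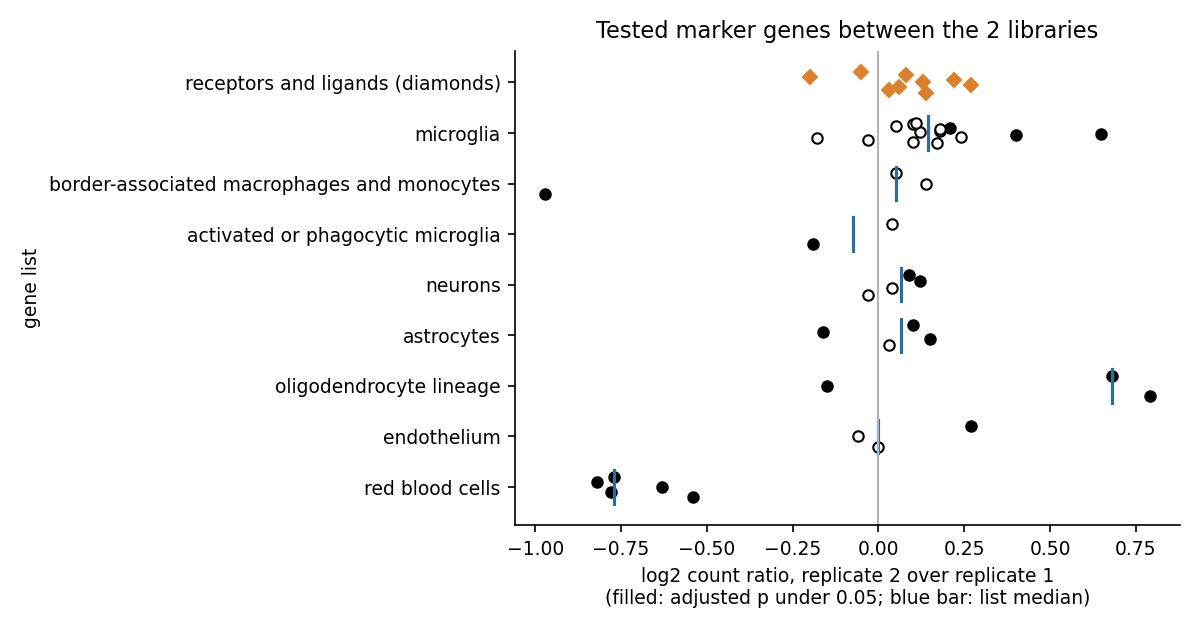
Log2 count ratio of replicate 2 over replicate 1 for the 9 tested receptor and ligand genes (diamonds) and for the tested genes of 8 marker lists (circles, filled where the adjusted p is under 0.05, with a bar at the list median). The microglial genes have a median of 0.14, and the red blood cell genes, at a median of -0.77, all lie left of 0.

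Downstream of CSF1R and TREM2-TYROBP, none of the 9 tested genes of the signal relay was called, against 11.8% of all genes tested. Their median log2 ratio was 0.08. Ratios went both ways without passing, such as Plcg2 at 0.35 (115 and 136 counts) and Inpp5d at -0.12 (346 and 294 counts). At such depth the lack of a call does not show equal levels. The levels below are those of whole tissue, and the cells they come from were not told apart. Grb2, an adaptor of receptor kinases, was the highest, at 83.42 and 78.84 TPM. Cbl, the ubiquitin ligase gene that limits CSF1R signalling, stood at 24.69 and 26.35 TPM, and Pik3cd, a PI3-kinase subunit gene, at 13.64 and 13.98. Syk, the kinase recruited by TYROBP, stood at 2.96 and 2.86 TPM, close to the level of Trem2. Sirpb1a was listed at 0.

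Of the TREM2 ligands listed, Apoe and Clu were far above the receptor and Apob was below it. Apoe, the apolipoprotein gene, stood at 1093.04 and 1182.88 TPM, and Clu, the clusterin gene, at 236.32 and 256.64, against 3.00 and 2.64 for Trem2. Of 4 tested genes of this list, these 2 were higher in replicate 2, at log2 count ratios of 0.10 and 0.11. That direction was called in 6.34% of all genes tested. The sheddase gene Adam10, whose product can cleave TREM2 and fractalkine from the membrane, stood at 34.58 and 37.37 TPM and was at 0.01. Apob was at 0.04 and 0.07 TPM.

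Of 16 tested genes of the TGF-beta pathway, 1 was higher and 1 lower in replicate 2, a share near the 11.8% called over all genes tested. The median log2 ratio was 0.00. Smad3, a transcriptional relay of TGFBR1, had 520 and 709 counts, a ratio of 0.56. Tgfbr3, the co-receptor gene, had 632.5 and 447.9, a ratio of -0.38. Ski, an inhibitor of SMAD signalling, was the highest, at 52.76 and 54.15 TPM, followed by Smad4 at 29.28 and 23.93 and the latency protein gene Ltbp4 at 22.39 and 23.59. Ltbp2 was the lowest, at 0.58 and 0.47 TPM. Smad3 thus differed by more than any of the 9 tested receptor and ligand genes, while Tgfbr1 and Tgfb1 themselves were not called.

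None of the 7 tested purinergic genes was called, against 11.8% of all genes tested, and their median log2 ratio was 0.08. Here too ratios went both ways without passing, such as P2rx4 at 0.30 (137 and 156 counts) and Entpd1 at -0.26 (374 and 289 counts). Gnai2, which encodes an inhibitory G protein subunit of the kind P2RY12 couples to, stood at 113.73 and 112.87 TPM. Panx1, a channel gene for ATP release, stood at 30.81 and 24.83 TPM, and Entpd1, whose enzyme (CD39) degrades ATP and ADP, at 7.66 and 6.38. Adora3 was the lowest, at 0.51 and 0.39. Ptprz1, which encodes another receptor for IL-34, stood at 157.44 and 141.36 TPM, above Csf1r in both libraries, and was lower in replicate 2 by counts (23275 and 19434, log2 ratio -0.15, adjusted exact binomial p = 1.55e-23). Sdc1, a syndecan gene that also binds IL-34, stood at 2.35 and 1.35 TPM.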

How the data were processed

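Gene and transcript tables with expected counts and TPM were deposited by the authors, derived from alignments to mm10 with GENCODE M21 per the deposited descriptions. A further deposited table holds estimated counts and TPM per transcript from the FASTQ files, summed here per gene. The deposited counts are not normalized, and the deposited TPM have the same total in both libraries. No source used here names the quantification tools. Expected counts were rounded before tests. The 26248 rows named only by a number and the 97 spike-in rows entered neither library sizes nor tests, and counts outside annotated genes were 0.358% and 0.359% of all.

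Scaling used TMM in edgeR 4.0.16 (R 4.3.3). Genes whose mean count reached 100 entered an exact binomial test (two-sided), with p-values adjusted by Benjamini-Hochberg and calls made at an adjusted p under 0.05, or additionally at 2-fold. With 1 group no quasi-likelihood fit of a condition was possible. Log2 count ratios use a prior count of 0.5. Intervals are exact at 95%, and for pairs exact conditional intervals of the odds ratio. They cover counting error only, since no molecular identifiers are named. Alternatives were library totals, DESeq2 1.42.0 size factors, other filters, protein-coding genes only, the FASTQ-based table, pseudocounts, single libraries, coding transcripts only (added after seeing the data) and edgeR's exact test with an estimated dispersion. Tests ran in scipy 1.17.1 under Python 3.11.15, with numpy 2.4.6 and pandas 2.3.3, and plots in matplotlib 3.10.9.

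The 10 genes, 5 pathway lists and 11 marker lists were chosen with earlier results of these data known. All 10 members were named, with the 3 highest and the lowest gene of each pathway list by mean TPM and genes called at 2-fold. Marker genes and any further gene were picked for naming with their values in view. The values of 1 marker gene are not reported here, and list counts, medians and sums include it. No likeness of pattern between genes was computed over 2 libraries. Sequences came from GENCODE M21 transcripts.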

Additional observations from a re-analysis of the deposited data

How the results depend on the processing

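The same 4 members were called with library totals, with DESeq2 size factors, with a mean count of at least 10, over protein-coding genes only and from FASTQ-based counts. Without a filter 3 were called, Csf1r being lost, and with edgeR's exact test and an estimated dispersion 0 were. That dispersion came from the same 2 libraries that were compared. No count or pair ratio changed sign, but the order of P2ry12 and Il34, of Csf1r and its summed ligands in replicate 2, and the direction of Csf1-202 between libraries turned by the FASTQ-based route. The log2 ratio of Csf1r to Csf1 was 2.32 by the FASTQ-based route and 1.97 with 1 TPM added, and that of Il34 to Csf1 was 2.15 and 1.74. Cx3cr1 over Cx3cl1 was -3.83 by the FASTQ-based route, and Trem2 over Tyrobp -1.61 with 1 TPM added. Over coding transcripts only, added after seeing the data, Csf1r over Il34 was 0.98, Il34 over Csf1 1.20 and Trem2 over Tyrobp -2.13. The FASTQ-based route gave 0.75, 1.62 and -2.62 for these. Adding a constant shrinks ratios of low genes by construction. The cause of the differences between routes was not tested. List counts stayed within 1.5 times by both alternatives run. Leaving out a library leaves no difference between libraries to compute. No paired analysis was possible because the series has 1 group. Depth limits Trem2 and Tyrobp most, at 84.0 and 104.0 mean counts.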

Other observations

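Of 8 genes of activated or phagocytic microglia, 2 were at 1 TPM or more in both libraries, Lpl at 85.08 and 83.89 TPM and Igf1 at 8.94 and 8.88, and both are also expressed by other brain cells. Clec7a, a receptor gene of phagocytic microglia, had 1 and 2 counts, Cst7 1 and 1, Itgax 2.4 and 7.0 and Gpnmb 11.0 and 6.0. Spp1, the osteopontin gene, stood at 1.58 and 0.98 TPM, and Lgals3, the galectin-3 gene, at 0.77 and 0.88. Of the 8 genes only Lpl and Igf1 had enough counts to test, Lpl at a log2 count ratio of 0.04 and Igf1 at -0.19 (adjusted exact binomial p = 0.0374). Ms4a7 and Ccr2, genes of border macrophages and monocytes, had 0 and 4 counts and 9.3 and 6.1.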
